A study of Mus musculus with 2 samples.

Results

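Long called transcripts are the uncommon, extended blocks of nascent RNA in 2 global run-on sequencing (GRO-seq) libraries of mouse bone marrow-derived macrophages. The members were chosen by length alone: every called transcript whose end minus start plus 1 was at least 1000 bp. This gave 163 of 43122 transcripts (0.378%) in the control library and 989 of 51365 (1.93%) in the library made after IL-4, together 1152 of 94487. The length came from the readout itself, so the lengths and numbers below are descriptions of the 2 libraries and carry no test. Both libraries came from macrophages of wild-type mice aged 8 to 12 weeks, grown from bone marrow for 6 days in medium conditioned by L929 fibroblasts, a source of the growth factor M-CSF. The control cells received no cytokine and the other cells received IL-4 at 20 ng/ml for 1 hr. Duplicate run-on reactions were pooled into 1 library per condition, so n = 1 in each group, and the treatment and the library cannot be told apart. Of 14 macrophage markers 13 were called in control and 12 after IL-4. In each library 1 of 5 T cell, 1 of 4 B cell, 2 of 6 neutrophil, none of 3 mast cell and none of 4 fibroblast markers were called, and of 3 erythroid markers 0 and 1.

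In GRO-seq, RNA polymerases already engaged on the DNA are allowed to run on in isolated nuclei with a bromine-labelled nucleotide, and the labelled RNA is captured and sequenced. The signal therefore marks where polymerase was transcribing, introns and the region past the end of a gene included. HOMER, the program used by the authors, splits this signal on each strand into called transcripts, so a gene is usually covered by many separate pieces, and a long called transcript is a stretch with no break in the call. It is not a full-length RNA. IL-4 binds the IL-4 receptor on macrophages and activates the transcription factor STAT6, which drives genes of alternative polarization such as the mannose receptor gene Mrc1 and the feedback inhibitors Socs1 and Cish.

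Promoter sequences of 4 genes are printed here because the long transcripts described below begin at or follow these starts, and because each window lies outside every annotated gene. Each is the 250 bases before the RefSeq start site on GRCm38.p6, 5′ to 3′ on the strand of the gene. Capitals mark GGGCGG or its reverse complement CCGCCC, the GC box bound by Sp1-family factors. Dhrs3, the gene of the longest call, lies on the plus strand and its window is chr4:144892577-144892826. Tcf7l2 and Socs1 carried long transcripts after IL-4 and none in control, with windows chr19:55741560-55741809 (plus strand) and chr16:10785537-10785786 (minus strand). Apobec1 carried them in control and none after IL-4, with the window chr6:122602445-122602694 (minus strand).
Dhrs3: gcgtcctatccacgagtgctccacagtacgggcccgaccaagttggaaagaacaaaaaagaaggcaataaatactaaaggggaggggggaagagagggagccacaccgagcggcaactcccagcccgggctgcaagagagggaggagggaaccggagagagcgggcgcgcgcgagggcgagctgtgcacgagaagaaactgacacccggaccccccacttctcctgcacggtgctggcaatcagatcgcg
Tcf7l2: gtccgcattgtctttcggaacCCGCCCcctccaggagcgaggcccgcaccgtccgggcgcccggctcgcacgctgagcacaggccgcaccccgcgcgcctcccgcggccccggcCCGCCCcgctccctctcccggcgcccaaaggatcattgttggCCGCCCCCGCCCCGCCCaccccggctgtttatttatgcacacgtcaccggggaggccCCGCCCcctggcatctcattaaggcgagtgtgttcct
Socs1: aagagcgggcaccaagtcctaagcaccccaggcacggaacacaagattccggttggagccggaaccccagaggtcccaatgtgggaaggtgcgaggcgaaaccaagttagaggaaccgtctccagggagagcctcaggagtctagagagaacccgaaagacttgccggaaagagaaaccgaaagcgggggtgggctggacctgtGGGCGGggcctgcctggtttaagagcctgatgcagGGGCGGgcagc
Apobec1: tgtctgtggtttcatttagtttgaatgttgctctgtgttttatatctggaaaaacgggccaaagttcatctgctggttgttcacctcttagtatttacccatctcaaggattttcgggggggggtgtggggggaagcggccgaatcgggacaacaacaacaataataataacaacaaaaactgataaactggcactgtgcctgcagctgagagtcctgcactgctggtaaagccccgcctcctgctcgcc

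Tcf7l2 held 6 GC boxes (some share bases), Socs1 held 2, and Dhrs3 and Apobec1 held none. Among all 32851 promoter windows of the RefSeq table, which run from 250 bases before to 50 after a start, 35.7% held the motif on either strand. The letters TTCNNNNGAA and TTCNNNGAA, spacings associated with STAT factors, were also searched. They were found in 6.95% and 8.30% of all promoter windows and in none of the 4 sequences shown. A match is a description of letters, and no match says only that these letters were not in the window. Of the 540 genes with a long IL-4 transcript, 427 were matched to the table, which is under 80%, so no share over the set was read. In both libraries the first called transcript of Dhrs3 began 77 bases after the start site. At Tcf7l2 the first call began 130 bases after the start in control, with a length of 170 bp, and 121 bases after it following IL-4, with a length of 1046 bp. At Socs1 the first call began 38 bases after the start in control and 6 bases after it following IL-4.

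The first comparison asked how many long transcripts each library held and how far they reached. The number after IL-4 was 6.07 times that in control, whereas the number of all called transcripts was 1.19 times. When calls at most 500 bp apart on a strand were joined first, the numbers were 1602 and 4340, a ratio of 2.71. Summed, the long transcripts covered 206 kb in control and 1306 kb after IL-4, or 1.91% and 7.06% of all called bases. The whole range of lengths moved along with them: the median over all control transcripts was 227 bp against 312 bp in the IL-4 library, and transcripts under 200 bp made up 39.98% and 17.2%. The part of this overall shift in the number of long transcripts was not tested. Within the long class the median length was close in both libraries, at 1179 bp (quartiles 1074.5 and 1344) in control and 1187 bp (1074 and 1429) after IL-4. The tail reached further after IL-4. Transcripts of at least 1500 bp numbered 25 and 198, those of at least 2000 bp 8 and 57, and those of at least 3000 bp 0 and 12.

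**Figure D1:**
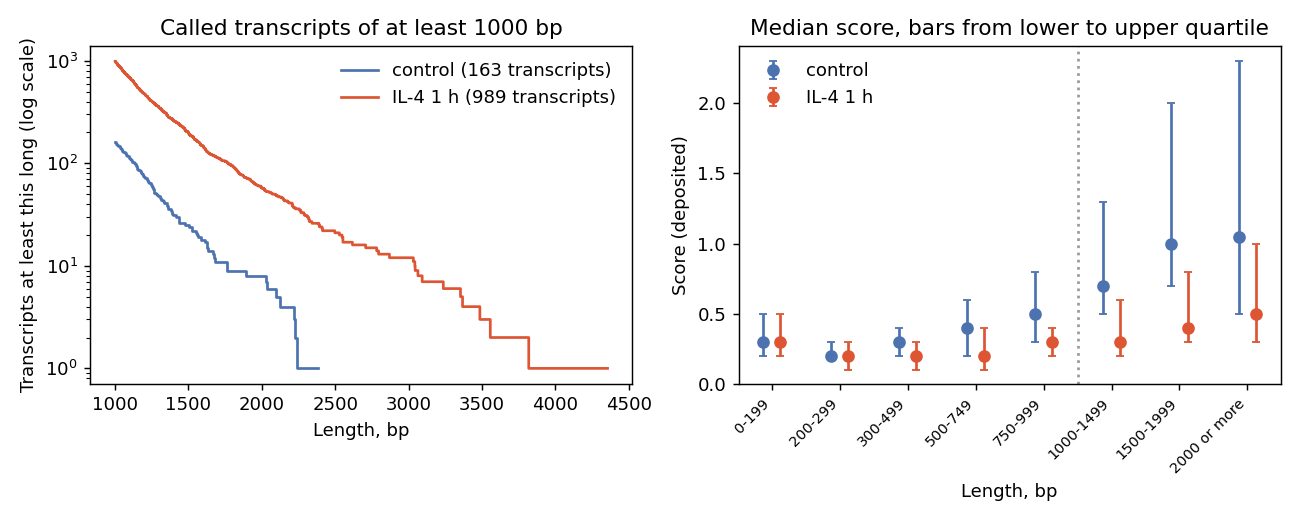
Left, the number of called transcripts at least as long as the length on the horizontal axis (bp, from 1000 bp upward, log scale on the vertical axis) in control and IL-4 1 h. Right, the median deposited score of all called transcripts by length class with bars from the lower to the upper quartile and a dotted line at 1000 bp. The IL-4 curve lies above control at every length and ends at 4355 bp against 2379 bp, whereas from 200 bp upward the control scores have the higher or equal medians.

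The 1000 bp limit cut through a continuous range. In control, 110 transcripts measured 900 to 999 bp and 50 measured 1000 to 1099 bp, with median scores of 0.5 and 0.75. After IL-4 the numbers were 447 and 305, with a median score of 0.3 on both sides. The control transcript just inside was at Efhd2 (1000 bp, score 0.4) and the nearest outside was at Rasgef1b (999 bp, score 0.6). After IL-4, calls of exactly 1000 bp at Psap (score 2.9) and Grb2 (score 0.7) fell inside and calls of 999 bp at Tra2a (0.3) and Pnpla2 (0.5) fell outside.

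The longest control transcript lay at the promoter of Tet3, which encodes an enzyme that oxidizes methylated cytosine, at chr6:83439886-83442264 on the minus strand, with 2379 bp and a score of 0.5. It was followed by a 2236 bp call in Mfsd12 (named 4930404N11Rik in the file), 2226 bp in the amino acid transporter gene Slc43a2, 2218 bp in Apobec1 and 2123 bp in Psap. The longest IL-4 transcript ran over 4355 bp of Dhrs3, whose product reduces retinal in vitamin A metabolism, at chr4:144892904-144897258 on the plus strand, with a score of 3.9. Next came 3818 bp in Ehbp1l1, a further 3556 bp at the end of Dhrs3, 3485 bp in Ski, a corepressor of TGF-β signalling, and 3367 bp in Fam20c, a kinase of the secretory pathway. None of the 5 longest control transcripts is in a gene of the 5 longest IL-4 transcripts. Over the whole class, 88 of the 138 gene names with a long control transcript also had one after IL-4.

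From 200 bp upward the median deposited score did not decrease from one length class to the next in either library, while transcripts under 200 bp had a higher median than those of 200 to 299 bp. Long transcripts had a median score of 0.7 (quartiles 0.5 and 1.35) in the control library against 0.4 (0.2 and 0.6) in the IL-4 library, beside medians of 0.3 and 0.2 over all transcripts. A score of at least 1 was found in 61 control (37.4%) and 129 IL-4 long transcripts (13.0%), beside 7.33% and 3.85% of all. A score of 0.2 or less was found in 12 control (7.36%) and 301 IL-4 long transcripts (30.4%), beside 45.4% and 63.9% of all, so low scores were more common after IL-4 in the whole library too. The scaling of the score is not stated, and over genes its median ratio was lower after IL-4 by 0.38 on the log2 scale. Score ratios between libraries are therefore given below after centring on that median. Single scores printed for a gene or a call are as deposited and not centred. A somewhat lower deposited score after IL-4 can thus lie near the median gene.

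The highest scores among long transcripts came from abundant noncoding RNA in both libraries. At Rn45s, the ribosomal RNA precursor, which is copied many times in the genome so that reads cannot be placed with certainty, the 3 long control transcripts scored 255.2, 1009.3 and 1625.4 and the 2 long IL-4 transcripts 232.7 and 1761.2. At Malat1, a nuclear long noncoding RNA, 2 long control transcripts scored 71.1 and 80.7 and the IL-4 one 52.1. A call of 1185 bp over mt-Rnr2, the mitochondrial large ribosomal RNA, was found after IL-4 with a score of 34.0, where control had 2 shorter calls with a best score of 13.7. Of 12 nuclear and small noncoding RNA genes, 9 of them called in each library, Rn45s, Malat1 and Neat1 carried long transcripts, all 3 in both libraries. Over all called gene names the shares with a long transcript were 1.4% in control and 6.01% after IL-4. Neat1, the scaffold RNA of nuclear paraspeckles, held 5 long transcripts in each library, scoring up to 15.3 in control and 9.9 after IL-4.

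The annotation classes of long transcripts asked where in genes they lie. Introns held the largest class in both libraries, with 84 control long transcripts (51.5%, 95% Wilson interval 43.9 to 59.1) and 590 IL-4 long transcripts (59.7%, 56.6 to 62.7), beside 64.3% and 65.2% of all transcripts. These intervals cover the counting of transcripts within a library only. Exons held 11.7% in each library, beside 8.16% and 8.34% of all. The 3′ ends of genes, annotated TTS, held 6.75% and 5.56%, beside 2.80% and 2.97%. Promoter-TSS was the label of 15 (9.20%) and 71 (7.18%), beside 10.8% and 10.2% of all transcripts. A long call that begins near a start can carry another label and count in another class. The 2123 bp control call of Psap begins 0.095 kb into the gene but is labelled intron 1, at 1155 bp from a start. By overlap, 32 control (19.6%) and 167 IL-4 long transcripts (16.9%) met a promoter window on their strand. This overlap was not counted over all transcripts. The 5′ UTR class held 5 control (3.07%) and 8 IL-4 long transcripts (0.809%), beside 2.45% and 2.19% of all. The 3′ UTR class held 11 (6.75%) and 57 (5.76%), beside 3.60% and 3.80% of all. Noncoding genes held 7 (4.29%) and 12 (1.21%), beside 0.487% and 0.555% of all. Intergenic places held 11 (6.75%) and 78 (7.89%), near the 7.39% and 6.81% of all. The class was not given for 2 IL-4 long transcripts.

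Inside introns, the first intron took 56 of the control long transcripts (66.7% of the intronic ones) and 271 after IL-4 (45.9%), beside 39.1% and 39.6% over all transcripts. Long control transcripts lay a median of 1795 bp from the nearest start site and long IL-4 transcripts 5243 bp, beside 10239 bp and 10836 bp over all transcripts. Within 1 kb of a start lay 71 control (43.6%) and 262 IL-4 long transcripts (26.5%), beside 22.4% and 21.6%. Control long transcripts thus sat nearer to starts than those after IL-4, and both nearer than the rest. A repeat element or CpG island label was missing from 82.8% and 82.5% of long transcripts, beside 67.4% and 69.7% of all. CpG islands were the label of 9.82% of long control and 5.06% of long IL-4 transcripts, beside 4.46% and 4.38% of all.

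Most long transcripts ran in the direction of a gene, as did most of all transcripts. Of the 163 control ones 146 and of the 989 IL-4 ones 891 overlapped a GENCODE M21 gene on the same strand. Over all transcripts these were 38288 of 43122 and 45691 of 51365, so long transcripts were near the share of all. Dividing each such gene into 3 equal parts from its start, the control long transcripts fell 83, 28 and 35 into them (56.8%, 19.2% and 24.0%), and those after IL-4 440, 194 and 257 (49.4%, 21.8% and 28.8%). Over all control transcripts the shares were 46.5%, 26.6% and 26.9%. The opposite strand was also called in the same library at 14.7% of control and 13.0% of IL-4 long transcripts, beside 2.60% and 3.43% of all, and longer places have more room for such an overlap.

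Outside genes on their strand lay 17 control and 98 IL-4 long transcripts. Of these, 15 (88.2%) and 83 (84.7%) began within 10 kb past the end of a gene on the same strand, beside 46.7% and 47.9% of all transcripts outside genes. Polymerase is known to run past the end of a gene before it is released. Such calls after IL-4 included 1803 bp starting 119 bp beyond Socs1 (score 1.2), 1613 bp starting 679 bp beyond Il4ra (score 1.6, named Il21r in the file) and 1645 bp starting 3763 bp beyond Mrc1 (score 2.3, named Slc39a12). In control they included 1278 bp starting 129 bp beyond Fth1, the ferritin heavy chain gene (score 0.9), and 1193 bp starting 810 bp beyond Psap (score 0.6).

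The next comparison asked what the other library called at the same places on the same strand. No control transcript lay at 179 of the 989 IL-4 long places (18.1%, Wilson interval 15.8 to 20.6), beside 48.1% of all IL-4 transcripts. No IL-4 transcript lay at 6 of the 163 control long places (3.68%, 1.70 to 7.80), beside 37.4% of all control transcripts. A longer place can be met more easily, so the share of bases was also counted: control called 38.3% of the bases of IL-4 long transcripts (32.5% over all IL-4 transcripts), and IL-4 called 78.1% of the bases of control long transcripts (55.6% over all). If the counterparts had to cover at least 50% of the place, 65.8% of IL-4 long and 19.6% of control long transcripts were without them.

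**Figure D2:**
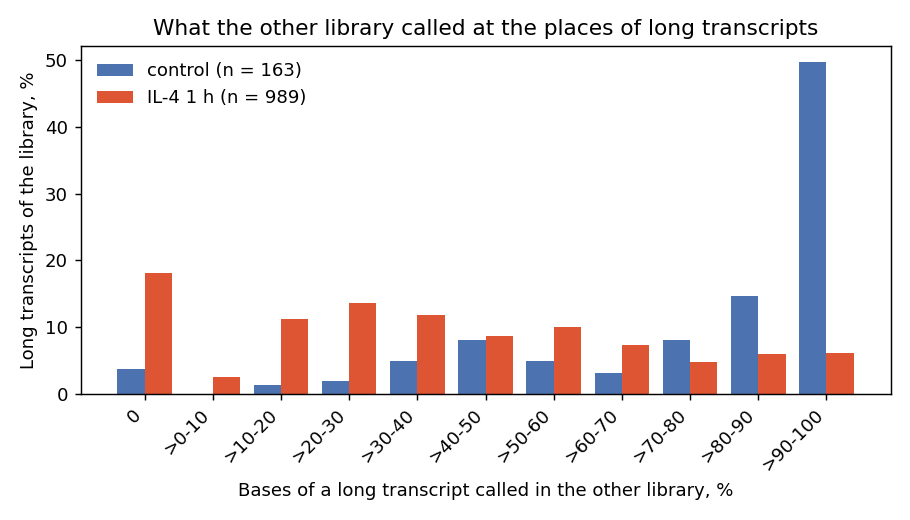
Share of the long transcripts of each library (vertical axis, %) by the percentage of their bases that the other library called on the same strand (horizontal axis, with 0 as a class of its own). The 163 control long transcripts gather in the class above 90%, whereas the 989 IL-4 long transcripts are spread over all classes, with 18.1% at 0.

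Most IL-4 long transcripts lay where control had called shorter pieces. Only shorter control transcripts were found at 726 IL-4 long places (73.4%), and a control transcript of at least 1000 bp at 84 (8.49%). Of the IL-4 long transcripts, 501 met 1 control transcript, 273 met 2, 30 met 3 and 6 met at least 4. Among the 810 with a counterpart, the longest control piece had a median of 452.5 bp and the control calls covered a median of 42.3% of the place. The greatest number of control pieces, 5, was under a 3044 bp transcript at Mpeg1, which encodes the macrophage pore-forming protein perforin-2. The control pieces covered 62.3% of it, and the scores were 0.8 for the best of them and 0.7 for the IL-4 call. At the 4355 bp transcript of Dhrs3, 4 control pieces covered 80.6%, with a best score of 3.3 against 3.9. At a 2153 bp transcript of Lgals3, the galectin-3 gene, 4 control pieces covered 66.8%.

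Scores at the same places were close. The IL-4 long transcripts with a counterpart had a median score of 0.4 and their best control counterparts 0.5. After centring, the median log2 ratio was 0.38 (quartiles -0.36 and 0.86), and without centring it was 0. At least 2-fold higher scores after IL-4 were found at 147 (18.1%) and at least 2-fold lower scores at 63 (7.78%) of the 810 places, beside 10.1% and 9.58% of the 26663 IL-4 transcripts with a counterpart. For the 157 control long transcripts with a counterpart the centred median was -0.08, with 12 (7.64%) at least 2-fold higher and 22 (14.0%) at least 2-fold lower, beside 11% and 9.02% of 26998. The places were chosen by a long call in 1 library, where long calls had higher median scores than all calls. A lean toward that library can follow from the choice, so these shares are descriptions. No error can be given for these ratios with n = 1.

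The IL-4 long transcripts without any control call had low scores, with a median of 0.2, and the highest among them was 2.5 at Socs1. The longest were 2869 bp in Rnf19b, a ubiquitin ligase gene (named Tmem54, score 0.3), 2497 bp in Cdkn1a, the cell cycle inhibitor p21 (0.3), 2209 bp in Tbxas1, thromboxane synthase (0.9), 2207 bp in Dhrs3 (0.2) and 2147 bp in Snx29 (0.2). The 6 control long transcripts without an IL-4 call were at Cd93 (1222 bp, score 0.3), Muc6 (1201 bp, 0.2), Xylt2 (1185 bp, 0.8), Nt5dc2 (1147 bp, 0.6, past the end of Stab1), Ptms (1031 bp, 0.2) and Arhgef10l (1005 bp, 0.4). They were named after their values had been seen.

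The genes that carry long transcripts were then listed by the names in the files, which give the gene with the nearest promoter and not always the gene the transcript lies in. Long transcripts carried 138 gene names in control and 607 after IL-4, with 88 names in both, 519 in IL-4 only and 50 in control only. These were 1.4% of the 9827 names called in control and 6.01% of the 10106 called after IL-4. The name was that of the gene overlapped on the same strand for 118 of 163 control and 629 of 989 IL-4 long transcripts. A name had exactly 1 long transcript in 124 cases in control and 418 after IL-4, and at least 4 in 2 and 40 cases. For names with a long transcript in IL-4 only, the longest control transcript measured at least 750 bp at 97, from 500 to under 750 bp at 217 and under 500 bp at 201.

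As a gene value, the highest score among the transcripts with its name was taken in each library. Of the 603 genes with a long IL-4 transcript and a value in both libraries, 82 (13.6%) were at least 2-fold higher and 25 (4.15%) at least 2-fold lower after centring, beside 8.06% and 8.62% of all 8879 genes. Without centring these were 56 higher (9.29%) and 90 lower (14.9%), beside 5.98% and 24.3% of all genes. The balance of the counts of higher and lower thus turned with the centring. Beside all genes, the share higher was the greater and the share lower the smaller with and without centring. The 49 genes with a long transcript in control only and values in both libraries had none at least 2-fold higher and 14 (28.6%) at least 2-fold lower, with a centred median of -0.31. Each set was chosen by a long call in 1 library, and long calls there had higher median scores than all calls. A lean toward that library can follow from the choice, so these shares are descriptions. Over all genes the median gene value was 0.5 against 0.3 with IL-4, and over genes with a long IL-4 transcript it was 1 against 0.9.

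The genes with the most long transcripts after IL-4 were counted on the body of the gene, on its own strand. Sirpa, the inhibitory receptor for CD47 on macrophages (chromosome 2, 129592835 to 129632228, plus strand), went from 3 to 13 long transcripts while 39 calls in control became 36 with IL-4. The called share of its body was 52.0% and 76.7%, and its highest score 8 and 3.3, so more of the gene was called while its highest score was lower. Dhrs3 (chromosome 4, 144892827 to 144928209, plus strand) went from 2 to 10, with 33.0% and 76.4% of its body called. Its highest deposited scores were 3.3 and 3.9, a centred log2 ratio of 0.62. Snx29, a sorting nexin gene of 432.6 kb, went from 0 to 11 long transcripts and from 70 to 214 calls, and the called share of its body was 4.02% and 24.0%.

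Atp6v0a1, a subunit of the proton pump that acidifies lysosomes, went from 0 to 10 long transcripts, 7 of which carry in the file the name of a neighbouring gene, Naglu. Its called share was 14.2% and 71.9%, and its highest score 3.1 and 11.4. Tns3, a focal adhesion adaptor, also went from 0 to 10, with 10.6% and 37.2% called and highest scores of 1.7 and 1.3. Fam20c went from 0 to 9 and Ski from 0 to 8, with called shares of 21.6% and 58.8% for Fam20c. These genes differ in their deposited scores. In Atp6v0a1 both the length of the calls and the highest score were greater after IL-4, whereas in Tns3 and Sirpa the highest score was not.

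**Figure D3:**
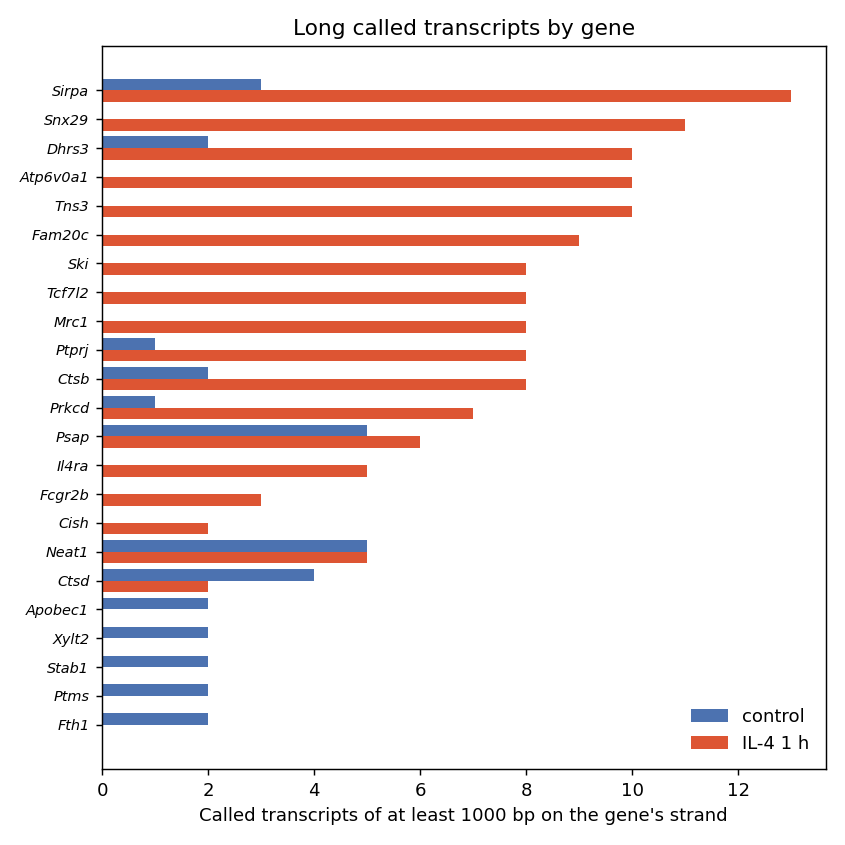
Number of called transcripts of at least 1000 bp on the strand of each gene body (horizontal axis) in control and IL-4 1 h for genes with many, equal or fewer after IL-4. Sirpa has 3 and 13, Snx29 0 and 11, Neat1 5 and 5, and Ctsd 4 and 2.

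Tcf7l2, a transcription factor of the Wnt pathway, went from 18 to 137 calls and from 0 to 8 long transcripts. The called share of its body of 191.8 kb went from 1.93% to 31.3%, and the highest score from 0.7 to 3. The first 2 of these long transcripts, of 1046 and 2286 bp, follow each other from the start of the gene and scored 0.8 and 0.6 where control had scores of 0.2 and 0.1. Prkcd, protein kinase C delta, went from 1 to 7, with 26.9% and 75.8% called and a highest score of 1.1 and 1.9. Its longest call, 3236 bp with a score of 0.3, met 2 control pieces that covered 23.3% of it. Ptprj, a receptor tyrosine phosphatase, went from 1 to 8, with 19.8% and 35.6% called and a highest score of 3.4 and 2.4, and Rnf213, a large ubiquitin ligase whose calls are named Mir1932 in the file, also from 1 to 8. Fcgr2b, the inhibitory Fc receptor, went from 0 to 3, and 7.62% and 67.4% of its body was called.

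The 3 lysosomal genes Psap, Ctsb and Ctsd, which the rule for named genes picked, held long transcripts in both libraries. Ctsb and Ctsd are also among the macrophage markers counted below. Psap, the precursor of the saposins that assist lipid breakdown in lysosomes, had 5 long control transcripts in its body and 6 IL-4 ones, with 68.9% and 80.9% called. Its highest score went from 6.6 to 3.7. The call at its start was 2123 bp with a score of 2.9 in control and 2266 bp with 2.6 after IL-4, so the 2 libraries were alike there, whereas a 2030 bp control call with a score of 3.1 further in met IL-4 calls of at most 1605 bp with a best score of 1.3. Ctsb, cathepsin B, went from 2 to 8 long transcripts with a highest score of 2.5 and 1.1. Ctsd, cathepsin D, went the other way, from 4 to 2, with 73.6% and 49.2% called and a highest score of 2.8 and 0.5. A further gene named Gm49369 overlaps Ctsd on the same strand, so these calls may be counted for either.

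**Figure D4:**
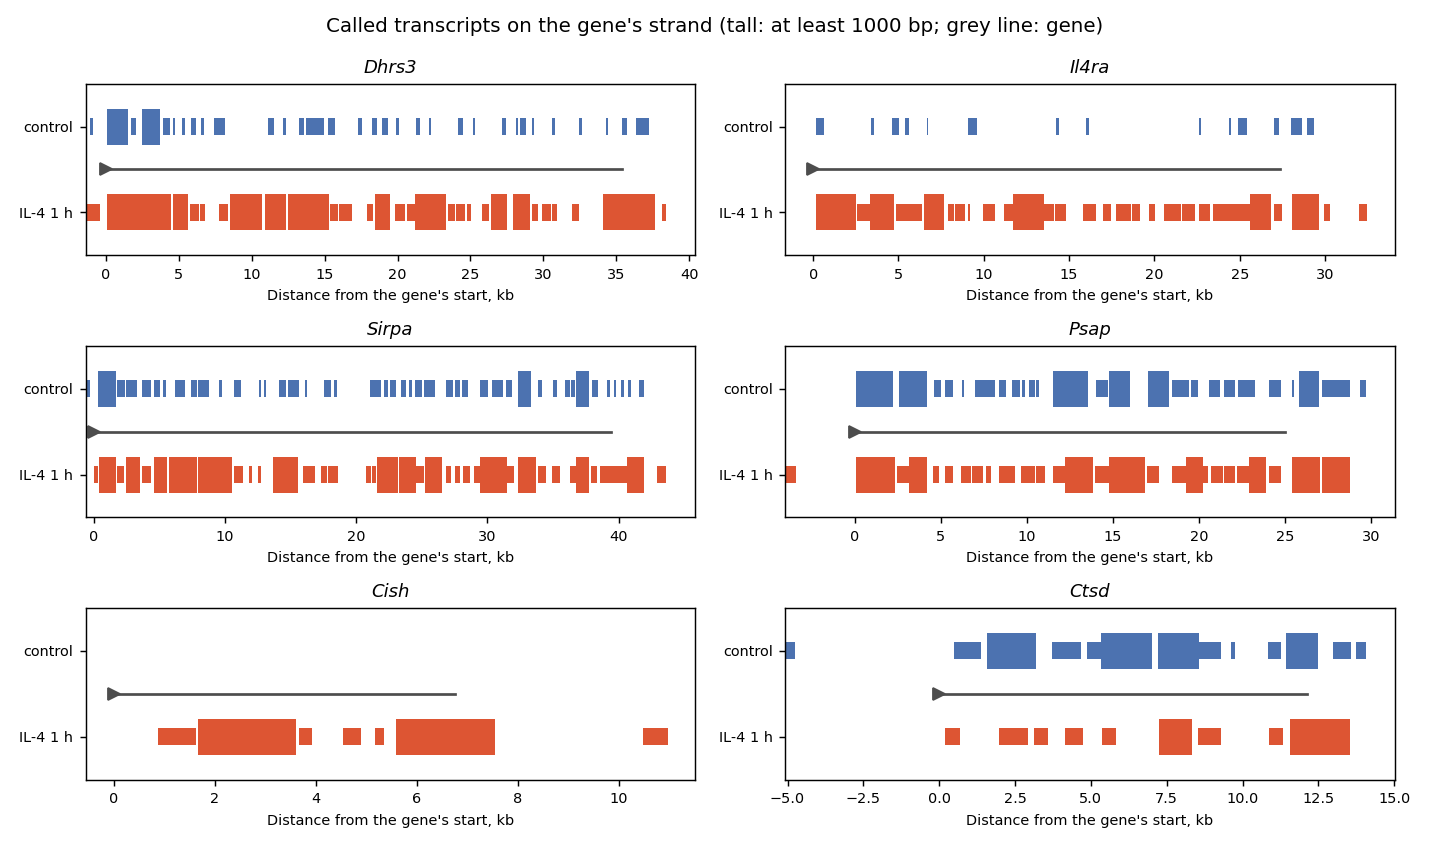
Called transcripts on the strand of 6 genes in control (upper row of each panel) and IL-4 1 h (lower row), by distance from the start of the gene in kb. Tall boxes are at least 1000 bp, short boxes are shorter, and the grey line is the gene. In Dhrs3 and Il4ra the tall boxes after IL-4 lie over rows of short control boxes, Cish has no box in control, and Ctsd has 4 tall control boxes against 2.

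The body of a gene with a long IL-4 transcript was called over a median of 10.6% (control) and 27.3% (IL-4), across 540 genes of at least 1000 bp. More of the body was called after IL-4 in 505 of them and less in 34. The long call chose these genes in the IL-4 library, so this is a description. Among all 9801 genes with a call in either library, 6706 (68.4%) had more called after IL-4, with medians of 1.79% and 2.81%. Among the 126 genes chosen by a long control transcript, 83 had more and 42 less, with medians of 29.5% and 30.9%. Among the 47 with a long transcript in control only, 24 had more and 23 less.

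**Figure D5:**
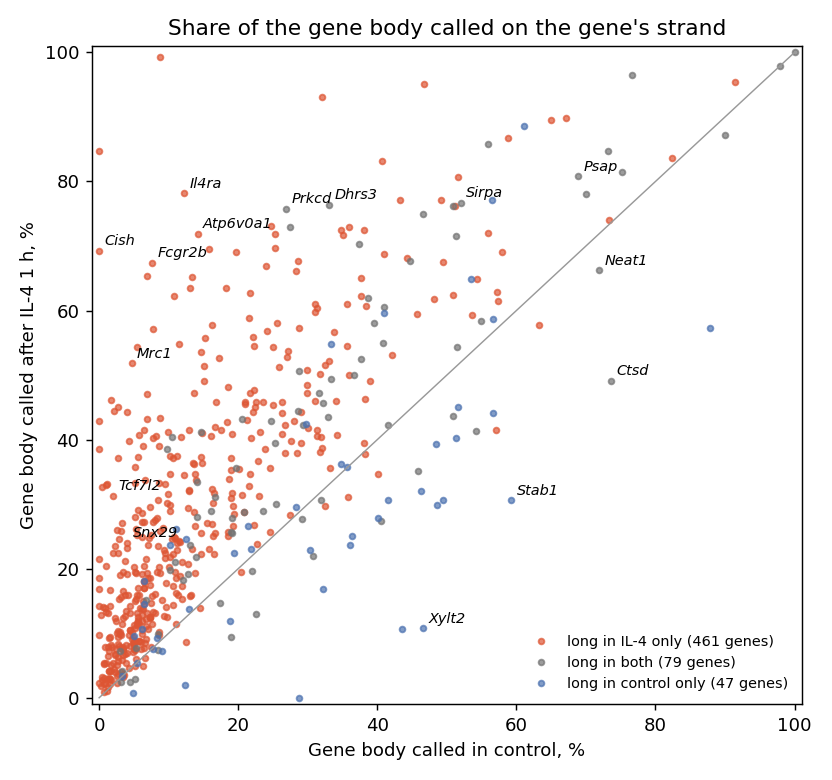
Percentage of the gene body called on its own strand in control (horizontal axis) and IL-4 1 h (vertical axis), a point for each gene with a long transcript in either library. The line marks equal shares. Of the 461 genes with long transcripts in IL-4 only, 446 lie above the line, and the 47 with them in control only lie on both sides, with Xylt2 at 46.6% and 10.8%.

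Some genes of the IL-4 response carried long transcripts after IL-4. The list, chosen with earlier results of these data known, held 35 genes of IL-4 signalling and alternative polarization, of which 19 were called in control and 26 after IL-4. By name 8 of the 35, or of the 26 called, carried a long transcript after IL-4, with 15 long transcripts in all. Of all names called after IL-4, 6.01% carried one. None of the list did in control, which for 19 called genes is near the share over all names given above. The 8 were Mrc1, Socs1, Cish, Egr2, Irf4, Il4ra, Stat6 and Bcl6. Over the 18 genes of the list with a value in both libraries the centred log2 median was 0.42, with 5 at least 2-fold higher and 1 at least 2-fold lower, beside 8.06% and 8.62% of all genes. The 1 lower gene of 18 is near that share.

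Il4ra, the alpha chain of the IL-4 receptor (chromosome 7, 125552120 to 125579474, plus strand), went from 13 to 28 calls and from 0 to 5 long transcripts. The called share of its body was 12.2% and 78.2%, and the highest score 0.9 and 2.2. Its first long transcript was 2341 bp with a score of 1.2, over a single control call of 500 bp with a score of 0.6 that covered 21.2% of it. The next ones were 1429 bp (score 0.4, control 0.3), 1132 bp (0.8, control 0.5), 1801 bp (0.2) and 1228 bp (0.5). The last 2 had no control call. All but the first thus lay where control had called less than 20% of the bases.

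Socs1, a suppressor of JAK kinases (chromosome 16, 10782240 to 10785536, minus strand), had 2 calls in control by name, the longest of 288 bp, and 7 after IL-4. Its 3 long transcripts of 1263, 1585 and 1803 bp scored 2.5, 1.1 and 1.2, and none had a control call under it. They followed each other from the body of the gene to past its end. The gene value went from 0.3 to 2.5, which after centring gave a log2 ratio of 3.44. Cish, a further inhibitor of cytokine signalling (chromosome 9, 107296026 to 107302784, plus strand), had no call in control and 6 in its body after IL-4, with 69.3% called. Its long transcripts were 1934 bp (score 0.4) and 1975 bp (score 0.1).

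Mrc1, the mannose receptor (chromosome 2, 14229392 to 14332057, plus strand), went from 21 to 97 calls and from 0 to 8 long transcripts, of which 6 were named Mir511, a microRNA gene within it. The called share was 4.67% and 51.8%, and the highest score 2.7 and 13.1. The first long transcript, 1231 bp at the start of the gene, scored 1.8 where control scored 0.3, and a 1613 bp call further in scored 1.5 against 0.2. The other 6 had no control call. The transcription factor genes Irf4 and Egr2 had no call in their bodies in control and 1 long transcript each after IL-4, of 1167 bp (score 0.4) and 1066 bp (score 0.3). By name, however, Irf4 had 1 control call, of 83 bp with a score of 1.7. Its highest score by name after IL-4 was 1.2, a centred log2 ratio of -0.12. Bcl6, a transcriptional repressor, had a long transcript of 1045 bp with a score of 1.4 near its start, where the best control score was 1.7. By name the centred log2 ratio of Bcl6 was 0.098. Stat6 itself had long transcripts with scores of only 0.1 and 0.2.

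The other lists are read beside the share of all called names with a long transcript, namely 1.4% (control) and 6.01% (IL-4). Of 16 macrophage transcription factors, 14 of them called in each library, 4 carried long transcripts in control and 6 after IL-4, with 3 in both. Irf8, a factor of macrophage identity, went from 0 to 4 and Mitf, a leucine zipper transcription factor, from 0 to 3. Runx1 went from 1 to 3, with a highest score of 10.9 in control and 4.7 after IL-4. Of 16 immediate early genes, also 14 called in each, 3 and 5 carried them, with 2 in both. Ier3, a stress response gene, had 1 in each library, of 1314 bp with a score of 0.8 as the highest in control and 1580 bp with 3.1 as the highest after IL-4. Jun had a 1336 bp call in control and none above 960 bp after IL-4, with a highest score of 0.6 in each.

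Of 20 abundant cytoskeletal and housekeeping genes, all called in both libraries, 5 carried long transcripts in control and 9 after IL-4, with 4 in both, beside 1.4% and 6.01% of all names, and the median of the longest call was 578.5 and 897 bp. The centred median log2 ratio of their gene values was 0.0047, next to the median of all genes, which centring sets to 0. At Eef1a1, a translation elongation factor, the longest call was 923 and 1352 bp. Lcp1, the actin bundling protein plastin-2, went from 792 to 1910 bp with scores of 1.3 and 3.4. Of the 10 genes whose mRNA the study describes as reduced by IL-4, a list of its own choice, 10 were called in control and 8 after IL-4. A long transcript was carried by 1 in control, Lyz2, lysozyme, with longest calls of 1128 and 930 bp. After IL-4 none carried one, which for 8 genes is near the 6.01% of all names. Over the 8 with a value in both libraries the centred log2 median was -0.41, with 0 at least 2-fold higher and 3 at least 2-fold lower, beside 8.06% and 8.62% of all genes. Smad3 and Lyz1 had no call after IL-4, so they are outside this median. The study described reduced mRNA at later times, whereas these are calls of nascent RNA after 1 hr.

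Among the 14 macrophage markers, 5 carried long transcripts in control and 4 after IL-4, beside 1.4% and 6.01% of all names. Csf1r, the receptor of M-CSF, went from 2 to 6. Apoe had 1 call of 1142 bp in control and none over 927 bp after IL-4. The few T cell, neutrophil and erythroid markers that were called had no long transcript, which at these numbers of genes is near the share over all names. Of 4 B cell markers, Cd79a gave its name to 1 long IL-4 transcript of 1254 bp that lay outside any gene on its strand, 6261 bp from the start site.

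Losses of long transcripts were fewer, as the 50 names with them in control only show. Apobec1, a cytidine deaminase that edits RNA, went from 2 to 0, with 49.4% and 30.7% of its body called and a highest score of 6.5 and 1. Xylt2, which starts glycosaminoglycan chains, also went from 2 to 0, with 46.6% and 10.8% called and a score of 1.2 and 0.2. Stab1, the scavenger receptor stabilin-1, went from 2 to 0, with 59.3% and 30.6% called and a score of 2.1 and 0.6. Its calls are partly named Nt5dc2 in the file. In these 3 genes the score, the length of the calls and the called share were all lower after IL-4. Fth1 also went from 2 to 0 in its body, where the longest call was 1097 bp in control against 915 bp with IL-4 and the highest score 3.5 and 2.4.

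Long transcripts had close neighbours. Another call on the same strand lay within 500 bp of 65.0% of control and 70.7% of IL-4 long transcripts, with median gaps of 320 and 221 bp. This share was not counted over all called transcripts, so whether long ones differ from the rest cannot be said. When calls at most 500 bp apart were joined, stretches of at least 5 kb numbered 17 in control and 137 after IL-4, and those of at least 10 kb 1 and 10. The longest control stretch was 12943 bp of Neat1, made of 15 calls. After IL-4 the longest was 17568 bp at Psap from 16 calls, followed by 17120 bp in Atp6v0a1 from 16 calls, and 14814 and 12771 bp in Sirpa. In control the longest stretch at Psap was 5597 bp from 4 calls.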

How the data were processed

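GRO-seq was measured in 2 samples of mouse bone marrow-derived macrophages, 1 untreated and 1 given IL-4. The authors aligned the reads to mm10 (GRCm38) with BWA 0.7.10, with SAMtools 0.1.19 and HOMER 4.2 also named in the submitters' processing notes, removed ENCODE blacklisted regions, called transcripts per library in HOMER's GRO-seq mode and annotated them with HOMER. The deposited score of each called transcript is a peak score per the file headers, rounded by the authors to 1 decimal. Its scaling and the read depth are not given in the sources used here, so no interval that needs a depth was computed.

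From the files, transcripts of at least 1000 bp were selected by start and end. Counterparts were transcripts of the other library sharing at least 1 bp on the same strand. A gene value was the highest score under a gene name, and log2 ratios were centred on the median of 8879 genes. Gene bodies were those of GENCODE M21 (GRCm38), with genes under 1000 bp left out, and promoter sequences came from RefSeq (GRCm38.p6). Shares carry 95% Wilson intervals, which cover counting only. With 1 library per group no test was run and no p-value is given. The members and gene lists were chosen with earlier results of these data known. Named genes followed a rule: those with the most, the longest and the highest-scoring long transcripts, those with no control call or the most control calls, those with the largest gain or loss of long bases, and list members that carried any. Genes named beyond it, for calls past a gene end, for gene bodies or at the length limit, were chosen after their values were seen. Matching and ratios were tested on simulated data. Alternatives were a minimum of 1500 or 2000 bp, a score of at least 0.3, joining of calls up to 100 or 500 bp apart, removal of Rn45s and the mitochondrial genome, GENCODE genes, other overlap, strand and gene value rules, and no centring. Python 3.11.15 was used with pandas 2.3.3, numpy 2.4.6, SciPy 1.17.1 and matplotlib 3.10.9.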

Additional observations from a re-analysis of the deposited data

How the results depend on the processing

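Of 75 values under other settings, 39 stayed within 1.5 times the count or within the 95% interval given to the value or median. The IL-4 library held more long transcripts than control under every setting tried: 25 against 198 at 1500 bp, 8 against 57 at 2000 bp, 273 against 1479 with calls up to 100 bp apart joined, and 1602 against 4340 at 500 bp. With 500 bp the ratio was 2.71 against 6.07, and the joining itself makes long calls from short ones. At 2000 bp introns held 62.5% (control) and 56.1% (IL-4), and the control median score was 1 at 1500 bp and 1.05 at 2000 bp, against 0.5 for IL-4 at 2000 bp. The share with no counterpart was 0 in control at 1500 bp and 0 at 2000 bp, and 12.6% and 8.77% for IL-4. It was 10.9% for IL-4 transcripts with a score of at least 0.3, whose bases control called over 44.4%. With 50% of the place to be covered it was 19.6% and 65.8%. The cause of these changes was not tested.

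The median log2 ratio at control long places was -0.36 at 1500 bp, -0.36 at 2000 bp and -0.46 without centring, and at IL-4 long places it was 0 without centring. Genes with long transcripts in both libraries, IL-4 only and control only numbered 11, 141 and 10 at 1500 bp and 1, 45 and 6 at 2000 bp. Genes with a long IL-4 transcript at least 2-fold higher numbered 27 of 150 (18%) at 1500 bp and 9 of 45 (20%) at 2000 bp. Those lower numbered 6 (4%) and 2 (4.44%). Over all 8879 genes the shares were 8.06% higher and 8.62% lower. Summing score times length, which counts length as well as score, gave 237 higher (39.3% of 603, beside 17.2% of all 8879 genes). It gave 21 lower (3.48%, beside 16.9% of all genes). No centring gave 56 higher (9.29%) and 90 lower (14.9%), beside 5.98% and 24.3% of all genes, where centring gave 82 and 25. The balance of these counts reversed. Beside all genes, the share higher was the greater and the share lower the smaller with and without centring. No paired analysis was possible because each group has 1 library, and no library could be left out. Scores are known to 1 decimal and the depth is unknown, which limits all ratios of low scores.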
